A study of Mus musculus with 18 samples.

Results

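Prostates of 30-week-old TRAMP mice that lacked Elac2 in the prostate epithelium (KO-TRAMP) were compared directly with prostates of TRAMP mice that carried the A537T change in ELAC2 (A537T-TRAMP). The comparison rests on 6 of the 18 RNA-seq libraries of the study, 3 per line, chosen by genotype and age. In KO-TRAMP, loxP sites around exon 8 were recombined by Pb-Cre, a Cre recombinase driven by the probasin promoter, so that the deletion is homozygous but limited to prostate epithelium and stroma keeps an intact gene. In A537T-TRAMP, an alanine is replaced by threonine on both copies in every cell of the body. By immunoblot of prostates without TRAMP, the paper reports less ELAC2 protein with A537T as well as with the knockout. Both lines, and the WT-TRAMP mice with wild-type Elac2 that are given beside them as levels, are males on a C56NL/6N background at 30 weeks of age. All 3 groups also carry 1 copy of TRAMP, in which the probasin promoter drives the SV40 T antigens in prostate epithelium. RNA came from the ventral and lateral lobes. The comparison asks how far loss of the protein in epithelium and the substitution in the whole body differ in the tumours they accompany, with the TRAMP transgene and age held equal.

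ELAC2 is the long form of RNase Z, the endonuclease that cuts the 3′ trailer from precursor tRNAs. The nucleus and the mitochondria both depend on it, and in mitochondria it acts together with RNase P on polycistronic transcripts in which tRNAs punctuate the mRNAs. ELAC2 was first known as a susceptibility gene for prostate cancer. The normal ventral and lateral lobes are secretory glands under androgen control, with a large endoplasmic reticulum, a layer of basal cells and a fibromuscular stroma. TRAMP tumours can keep this glandular identity or take on a neuroendocrine one, with neural transcription factors and granule proteins such as chromogranin A.

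The libraries are named by the numbers in the column headers, 13 to 15 for A537T-TRAMP, 16 to 18 for KO-TRAMP and 10 to 12 for WT-TRAMP, and the headers do not say which mouse a number is. The 6 libraries held 9594237 to 14830104 reads. Values are normalized counts, which are reads divided by 1 size factor per library, and a log2 fold change is KO-TRAMP minus A537T-TRAMP on the log2(normalized count + 1) scale, with its standard error (SE). In bulk tissue, fewer cells of a type and less RNA per cell cannot be told apart.

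The 3 KO-TRAMP libraries were not alike. Across the genes tested, the Spearman correlation of library 16 with the A537T-TRAMP libraries was 0.97 for each of them, against 0.84 with library 17 and 0.90 with library 18. In a principal component analysis of the 6 libraries, the first component held 72.1% of the variance and set libraries 17 and 18 against the other 4. Library 18 also lay between the other KO-TRAMP libraries. Among 723 genes that differed at least 8-fold between libraries 16 and 17, with at least 100 normalized counts in the higher one, 98.6% had a value in library 18 between those of 16 and 17. The median position was 39.2% of the way from library 17 to library 16, with quartiles of 34.2% and 44.7%. It was 37.1% for the 35 genes higher in library 16 and 39.4% for the 688 genes higher in library 17. Library 12 of WT-TRAMP lay between libraries 10 and 11 in the same way, in 96.2% of 291 genes and at a median of 43.3%, and A537T-TRAMP library 15 lay between 13 and 14 in 82.8% of only 87 genes. What gave these intermediate values was not tested. If the libraries of a group were not independent samples, the p-values below would be too small, so library 18 is left out in turn and results are given library by library. The labels describe the 3 libraries of a group as triplicates from mice, and p-values measure the spread between these libraries.

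**Figure D1:**
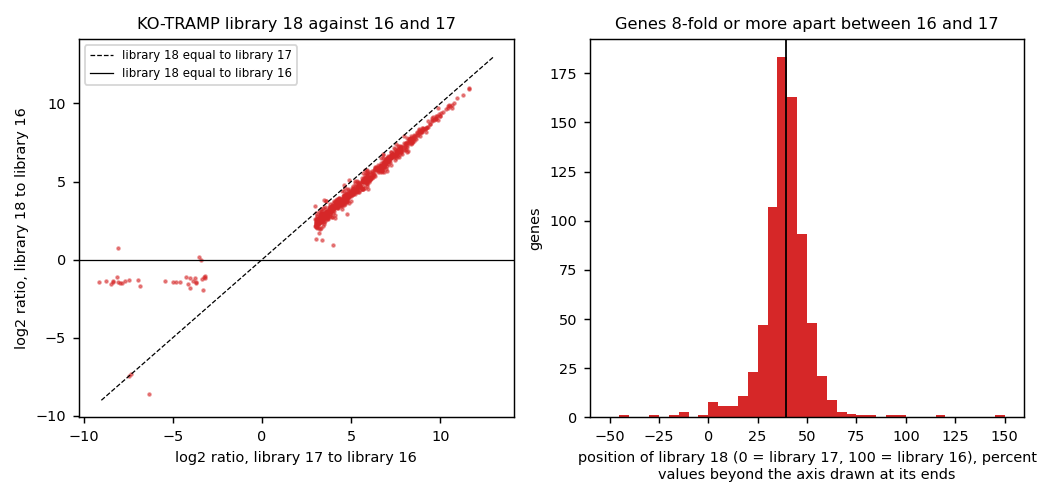
KO-TRAMP library 18 against libraries 16 and 17, for the 723 genes that differed at least 8-fold between those libraries. Left, each point is a gene, with the log2 ratio of library 17 to 16 on the horizontal axis and of library 18 to 16 on the vertical axis. Nearly all points lie between the line of equality with library 17 and the line of equality with library 16. Right, a histogram of the position of library 18 as a percentage of the way from library 17 to library 16, with the median of 39.2% as a vertical line.

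Elac2 itself (chromosome 11, 64979038 to 65002069, plus strand, GRCm38) differed little between the lines. Its normalized counts were 279, 313 and 315 in A537T-TRAMP and 251, 269 and 252 in KO-TRAMP, and 250, 321 and 309 in WT-TRAMP. Every KO-TRAMP library was below every A537T-TRAMP library, but KO-TRAMP and WT-TRAMP overlapped. The log2 fold change was −0.23 (SE 0.13, adjusted p = 0.474, limma), and the exact two-sided permutation test gave p = 0.1, the smallest that 3 libraries against 3 can give. Removal of 1 exon from epithelial cells leaves the rest of the transcript countable, and counts per gene do not separate exon 8 or the A537T codon, so these values do not check either genotype.

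Across the transcriptome, no gene separated the lines beyond the spread between libraries in the main test. In limma, 0 of 16734 genes (0%) reached an adjusted p under 0.05, and the smallest adjusted p was 0.294. At an unadjusted p under 0.05 there were 1853 genes (11.1%), of which 960 were higher and 893 lower in KO-TRAMP. The edgeR quasi-likelihood test on the recovered reads also called 0 genes, with 2578 (15.4%) at an unadjusted p under 0.05. DESeq2 called 890 genes (5.33%), 682 higher and 208 lower. In 511 of these 890, library 16 too lay outside the range of the A537T-TRAMP libraries in the direction of the call. Of all genes, library 16 lay above that range in 23.6% and below it in 25.5%. Library 16 also entered the test that made the calls, so this count is a description only. The outcome turned on library 16. Without it, limma called 3742 genes, 2418 of them higher, and the Spearman correlation of libraries 17 and 18 was 0.98. KO-TRAMP was then libraries 17 and 18 alone. Whether these are independent was not tested, and if they are not, this count is too large. Without library 18 it called 0, with 665 at an unadjusted p under 0.05.

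In 2754 genes (16.5%) all libraries of one line lay beyond all of the other, with 1344 higher (8.03%) and 1410 lower (8.43%) in KO-TRAMP. These shares are the background against which the members of each list below are read. The 28 genes named first were chosen as those with the smallest p among genes whose groups did not overlap, 14 in each direction, with a mean of at least 100. None passes the adjusted threshold in limma, with adjusted p from 0.294 to 0.348, and all 28 pass in DESeq2.

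The genes higher in KO-TRAMP included several of connective tissue. Col3a1, the chain of type III collagen, had 4024, 3058 and 3469 normalized counts in A537T-TRAMP and 13503, 7255 and 9918 in KO-TRAMP, a log2 fold change of 1.502 (SE 0.24). Fbn1, which encodes the microfibril protein fibrillin-1, had 683, 462 and 476 against 1366, 1191 and 1188 (log2 fold change 1.23, SE 0.18). Thbs2, a matricellular protein that restrains angiogenesis, had 60.2, 88.3 and 48.4 against 244, 652 and 495 (2.73, SE 0.41). Every KO-TRAMP library exceeded every A537T-TRAMP library, and library 16 was the highest of the KO-TRAMP libraries for Col3a1 and Fbn1 and the lowest for Thbs2. Fn1 (fibronectin), Col1a2 (a chain of type I collagen), Fstl1 (a secreted glycoprotein of mesenchymal cells) and Tgfbi (a matrix protein induced by TGF-beta) had log2 fold changes of 1.15, 0.86, 1.04 and 1.175 with SEs between 0.13 and 0.19. For Fstl1 the values were 569, 452 and 506 against 1040, 998 and 1103, the second smallest p among the higher genes.

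Chl1, a neural cell adhesion molecule of the L1 family, had the smallest p of the higher genes. It was counted at 274, 383 and 264 in A537T-TRAMP and 875, 1260 and 1081 in KO-TRAMP (log2 fold change 1.80, SE 0.21, unadjusted p = 7.9e-05), and at 241, 295 and 316 in WT-TRAMP. The A537T-TRAMP libraries thus lay near the WT-TRAMP level and all 3 KO-TRAMP libraries above both. Plin2, which coats lipid droplets, had 139, 121 and 123 against 260, 374 and 298, and Lhfp, a tetraspan membrane protein gene, had 46.9, 44.1 and 51.6 against 117, 211 and 135.

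The remaining higher genes are expressed by macrophages. Mpeg1, which encodes the pore-forming protein perforin-2, had 549, 580 and 478 normalized counts against 1085, 1008 and 1006 (log2 fold change 0.95, SE 0.13). Ctss, the lysosomal protease cathepsin S, had 634, 510 and 546 against 1211, 970 and 1014 (0.92, SE 0.15). C1qb, a chain of complement C1q, had 293, 243 and 306 against 509, 493 and 519 (0.86, SE 0.14), and Tyrobp, an adaptor of myeloid receptors, had 78.8, 51.9 and 79.5 against 180, 214 and 186 (1.47, SE 0.23). All 3 KO-TRAMP libraries were close to each other in these genes, library 16 included.

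The genes lower in KO-TRAMP included several of secretory epithelium. Msmb, the secreted beta-microseminoprotein of the prostate, had 5673, 5924 and 6213 normalized counts in A537T-TRAMP and 3088, 1617 and 2288 in KO-TRAMP (log2 fold change −1.40, SE 0.23). Defb1, an epithelial beta-defensin, had 1940, 916 and 1355 against 401, 220 and 285 (−2.19, SE 0.33). Slc30a2, a zinc transporter of secretory cells, had 158, 173 and 181 against 54.9, 38.9 and 40.9 (−1.91, SE 0.22, unadjusted p = 7.2e-05), the smallest p of the 28. Cldn3, a claudin of tight junctions, had 1053, 1092 and 825 against 567, 461 and 482 (−0.97, SE 0.16). In Msmb, Defb1, Slc30a2 and Cldn3 library 16 was the highest of the KO-TRAMP libraries, as it was in 13 of the 14 lower genes.

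Genes of amino acid transport and breakdown were also among the 14. Slc7a5 and Slc7a8, the 2 light chains of heterodimeric transporters of large neutral amino acids, had 635, 706 and 631 against 303, 148 and 214 and 356, 280 and 274 against 154, 96.1 and 104. Prodh, which starts the breakdown of proline, had 544, 514 and 477 against 239, 141 and 172 (log2 fold change −1.50, SE 0.22). Upb1, an enzyme of pyrimidine breakdown that yields beta-alanine, had 448, 304 and 262 against 91.1, 119 and 107. The groups were separated by a wide gap in all 4. Adora1 (an adenosine receptor), Atp12a (a proton and potassium pump), Wipf3 (an actin regulator) and Sec24d (a COPII coat subunit for export from the endoplasmic reticulum) had log2 fold changes of −1.60, −1.56, −1.62 and −0.84, with SEs between 0.15 and 0.28. Hspa1b, an inducible HSP70, had 250, 366 and 284 against 131, 126 and 108, but 68.0% of its 31-base words also occur in Hspa1a, so that its reads are uncertain. Manf, the 14th, belongs to the endoplasmic reticulum list described next.

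**Figure D2:**
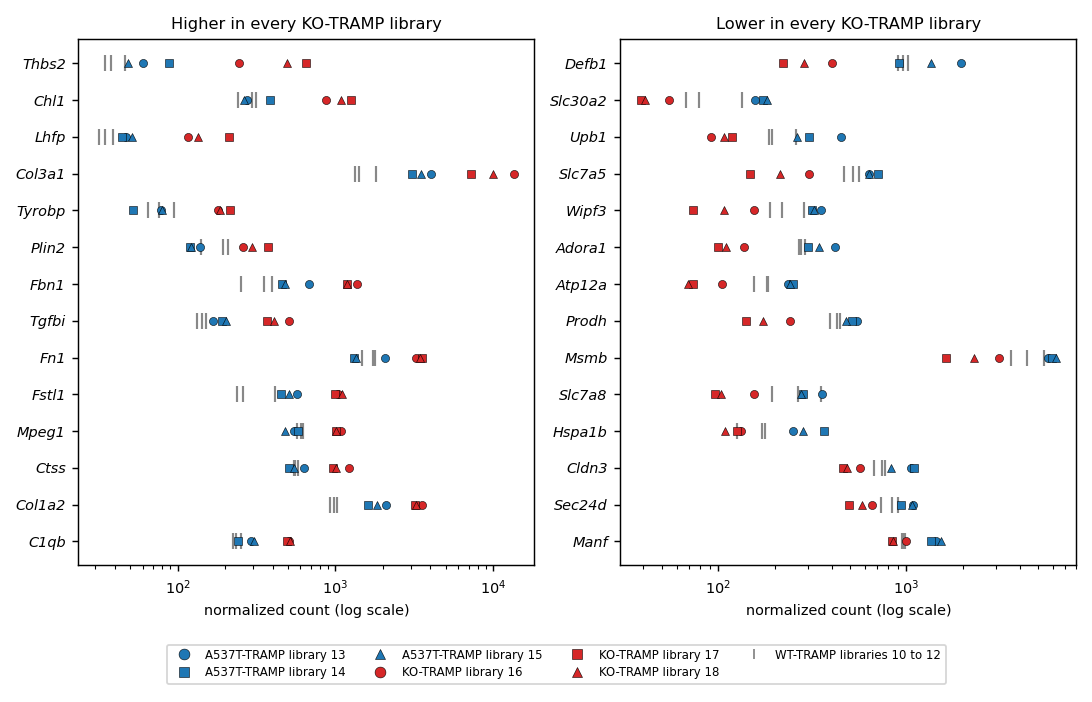
Normalized counts of the 28 genes with the smallest p among those with a mean of at least 100 and no overlap between the lines, on a log axis. Blue symbols are the 3 A537T-TRAMP libraries, red symbols the 3 KO-TRAMP libraries and grey ticks the 3 WT-TRAMP libraries of the same age. In the right panel the WT-TRAMP mean lies between those of the other lines for all 14 genes, and in the left panel it lies below both for 10 of 14.

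The WT-TRAMP levels place the 28 genes. For all 14 lower genes the WT-TRAMP mean lay between the A537T-TRAMP mean and the KO-TRAMP mean. For 10 of the 14 higher genes it lay below both, and for 4 between them. The WT-TRAMP levels were read from the table that also holds KO-TRAMP, and no test was made against them.

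Endoplasmic reticulum chaperones and unfolded protein response genes were lower in KO-TRAMP in most members. All 31 members tested had a log2 fold change below 0, with a median of −0.60, where 50.9% of all genes tested lay above 0 and their median was 0.01. In 20 of the 31 the groups did not overlap, all lower, beside 8.43% of all genes. The unadjusted p was under 0.05 for 18 (5.34% of all genes in this direction), 0 passed in limma, and DESeq2 called 9 (1.24%). The list's mean log2 level was 11.26, 11.22 and 11.30 in A537T-TRAMP and 11.02, 10.38 and 10.64 in KO-TRAMP. Library 16 was thus below all A537T-TRAMP libraries, as it was in 20 of the 31 members (25.5% of all genes), but by a median of 0.23, less than in libraries 17 and 18. The median was −0.58 without library 18, −0.54 without libraries 15 and 18, −0.41 without library 17 and −0.22 with library 16 as the only KO-TRAMP library. Secretory luminal markers, described below, were lower in the same libraries and the same order, at 11.37, 10.45 and 10.89 in KO-TRAMP beside 11.66 to 11.80 in A537T-TRAMP, and their part in the difference of the endoplasmic reticulum list was not tested.

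Creld2, a small chaperone-like protein released under stress of the endoplasmic reticulum, was counted at 815, 793 and 876 in A537T-TRAMP and 506, 312 and 416 in KO-TRAMP (log2 fold change −1.03, SE 0.19, adjusted p = 0.412). Manf, a secreted stress-induced protein, had 1440, 1354 and 1535 against 991, 837 and 848 (−0.70, SE 0.12). Hspa5, the main HSP70 of this compartment (BiP), had 13133, 10973 and 13604 against 8463, 5895 and 6385 (−0.87, SE 0.18). These 3 were lower in every KO-TRAMP library. Pdia6, a disulfide isomerase, had 6522, 6504 and 6673 against 4757, 2689 and 3443 (−0.89, SE 0.21), and Derl3, which helps export misfolded proteins for degradation, had 377, 513 and 530 against 268, 157 and 179 (−1.25, SE 0.25). The lectin chaperone Calr differed by less, with 12256, 10750 and 12519 against 9795, 9832 and 9762 (−0.27, SE 0.11). The most abundant member, P4hb, a disulfide isomerase that is also the beta subunit of collagen prolyl hydroxylase, overlapped between the lines, at 18051, 14550 and 17613 against 20429, 10353 and 14194.

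The response of such genes to a stressed endoplasmic reticulum is known to run through the endoplasmic reticulum stress element (ERSE), a promoter motif bound by NF-Y and ATF6. The motif, which is CCAAT, then 9 bases of any kind, then CCACG, was searched on both strands of 300-base promoters from RefSeq (GRCm38.p6), from 250 bases before to 50 after each start site. Its letters were present in 9 of the 26 list members with a promoter in that table (34.6%) and in 37 of 27025 genes overall (0.137%). They were Calr, Canx, Creld2, Derl3, Dnajc3, Hsp90b1, Hspa5, Pdia6 and Syvn1. The promoters of the 4 with the smallest p in this comparison are printed below to show the element that these genes share, with its fixed letters in capitals. They lie at chr15:88819396-88819695 (Creld2), chr10:75893148-75893447 (Derl3), chr2:34771840-34772139 (Hspa5) and chr12:17266339-17266638 (Pdia6), all on the plus strand. The match is on the strand shown in Hspa5 and Pdia6 and on the opposite strand in Creld2 and Derl3, and it starts 126, 156, 65 and 98 bases before the start site in Creld2, Derl3, Hspa5 and Pdia6.
Creld2: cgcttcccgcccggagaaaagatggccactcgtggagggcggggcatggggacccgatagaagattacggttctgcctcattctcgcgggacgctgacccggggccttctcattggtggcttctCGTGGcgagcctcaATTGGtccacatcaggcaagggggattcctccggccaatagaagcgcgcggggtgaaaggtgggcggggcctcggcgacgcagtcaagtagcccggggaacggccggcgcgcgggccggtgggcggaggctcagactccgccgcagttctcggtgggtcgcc
Derl3: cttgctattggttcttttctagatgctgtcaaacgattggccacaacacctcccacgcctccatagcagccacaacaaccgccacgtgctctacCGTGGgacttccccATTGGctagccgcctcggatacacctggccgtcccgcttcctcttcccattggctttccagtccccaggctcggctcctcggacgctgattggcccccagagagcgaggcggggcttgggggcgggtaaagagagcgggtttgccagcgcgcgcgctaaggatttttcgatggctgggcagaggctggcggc
Hspa5: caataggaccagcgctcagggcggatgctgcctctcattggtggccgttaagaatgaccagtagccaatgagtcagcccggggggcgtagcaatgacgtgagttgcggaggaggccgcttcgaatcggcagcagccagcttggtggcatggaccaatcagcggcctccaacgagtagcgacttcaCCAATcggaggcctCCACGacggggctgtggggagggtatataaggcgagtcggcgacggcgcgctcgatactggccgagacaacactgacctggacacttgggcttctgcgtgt
Pdia6: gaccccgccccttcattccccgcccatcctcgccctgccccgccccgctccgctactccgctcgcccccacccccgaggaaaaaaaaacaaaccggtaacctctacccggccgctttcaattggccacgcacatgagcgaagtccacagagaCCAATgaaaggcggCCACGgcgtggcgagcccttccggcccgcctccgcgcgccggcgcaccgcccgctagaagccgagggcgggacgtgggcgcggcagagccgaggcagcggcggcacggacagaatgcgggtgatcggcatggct
The element lies at different distances from the start in the 4 promoters, and a match of letters is a description, with no measurement of binding. The related motif ERSE-II (ATTGG, 1 base of any kind, CCACG), also searched on both strands, was present in 2 of the 26, Dnajb11 and Herpud1, and in 0.0444% of genes overall. No list member held both motifs.

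Extracellular matrix genes stood on the other side. Of 48 members tested, 42 had a log2 fold change above 0, with a median of 0.72, and in 24 the groups did not overlap, all higher in KO-TRAMP, beside 8.03% of all genes. The unadjusted p was under 0.05 in 23 (5.74% of all genes in this direction) and DESeq2 called 19 (4.08%). The mean log2 level of the list was 8.49, 7.85 and 8.19 in A537T-TRAMP, 8.94, 9.01 and 9.02 in KO-TRAMP and 7.57, 7.40 and 7.53 in WT-TRAMP. All 3 KO-TRAMP libraries were thus level with each other and above A537T-TRAMP, which was above WT-TRAMP, and 41 of the 48 members had their lowest mean in WT-TRAMP. Library 16 alone exceeded every A537T-TRAMP library in 34 members, beside 23.6% of all genes. The median was 0.76 without library 18, 0.75 without libraries 15 and 18 and 0.73 with library 16 as the only KO-TRAMP library.

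The members differed among themselves. The fibrillar collagens Col1a1, Col1a2, Col3a1, Col5a1 and Col5a2, the cross-linking enzymes Lox, Loxl1 and Loxl2, and the microfibril proteins Fbn1, Mfap2, Mfap4 and Mfap5 were among the 24. Col1a1 had 1121, 1334 and 1202 normalized counts against 2780, 1702 and 2115 (log2 fold change 0.83, SE 0.20). Not all abundant members separated the lines, since Col6a3, a chain of type VI collagen, had 3299, 1835 and 3207 against 4539, 1648 and 2561. Basement membrane genes did not follow. Of 25 tested, 10 were above 0, with a median of −0.14 that ranged from −0.27 without library 15 to −0.02 without library 13, although Col4a2 (type IV collagen) had 721, 527 and 497 against 1032, 1064 and 1067 and Lamb2 (laminin beta-2) had 2737, 3024 and 2654 against 2232, 938 and 1227.

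**Figure D3:**
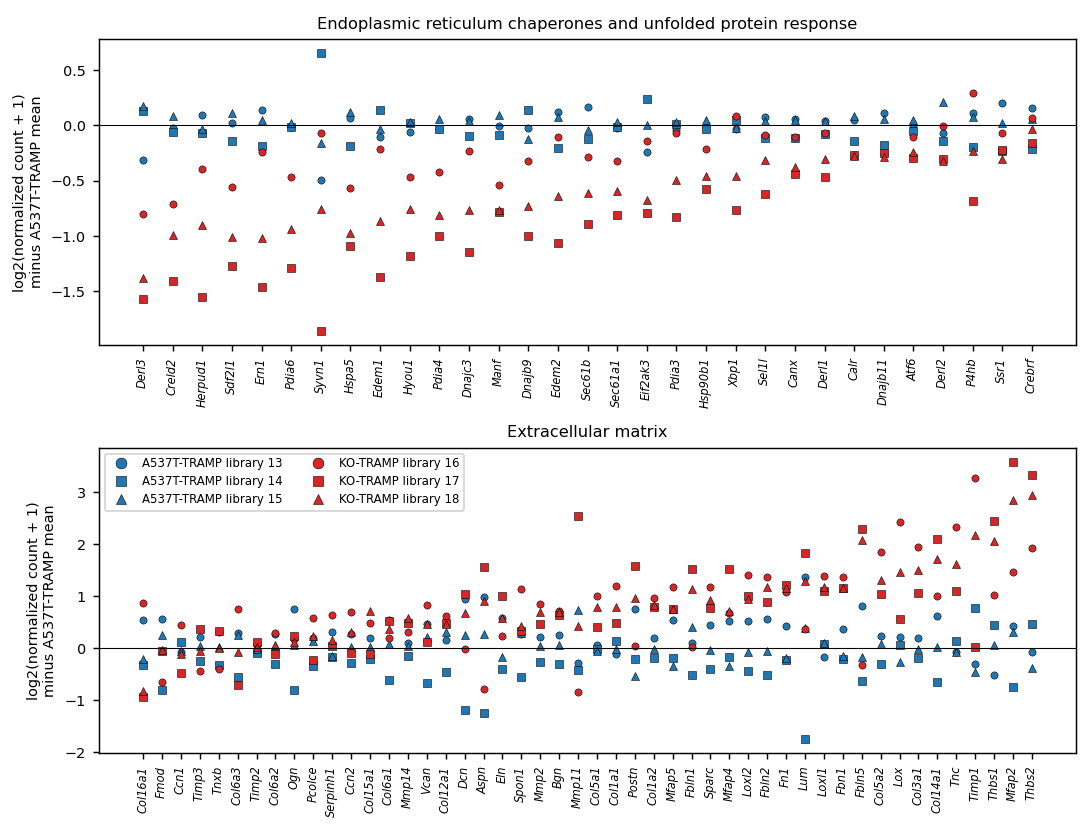
Members of 2 lists in each library, as log2(normalized count + 1) minus the mean of the A537T-TRAMP libraries, ordered by log2 fold change. Blue symbols are A537T-TRAMP and red symbols KO-TRAMP libraries. Red symbols lie below blue in 20 of 31 endoplasmic reticulum genes (top), and above blue in 24 of 48 matrix genes (bottom).

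Markers of stromal and immune cells were read beside the matrix genes. All 11 macrophage markers had a log2 fold change above 0, with a median of 0.85. In 6 the groups did not overlap, all higher, beside 8.03% of all genes. Their mean log2 level was 7.98, 7.46 and 7.58 in A537T-TRAMP and 8.54, 8.35 and 8.46 in KO-TRAMP over all 11. Lyz2 (lysozyme) had 939, 519 and 629 against 1429, 1184 and 1236. Macrophage markers and matrix genes were thus higher together, and the part of one in the other was not tested. Of 11 fibroblast markers 10 were above 0 (median 0.60, and 0.35 without library 14). In 1 the groups did not overlap, higher, beside 8.03% of all genes. The mean log2 level of the fibroblast list in library 13 (7.69) exceeded that in library 16 (7.25). All 15 endothelial markers were above 0 (median 0.55), and 3 did not overlap, namely Cdh5, Kdr and Tie1, all higher, beside 8.03% of all genes. The mean log2 level of the endothelial list in library 16 was within the A537T-TRAMP range, while libraries 17 and 18 lay above it. The endothelial median was 0.04 with library 16 as the only KO-TRAMP library. Cdh5, the cadherin of endothelial junctions, had 104, 50.6 and 69.9 against 125, 130 and 150. T cell, B cell and MHC class II markers had medians of −0.58, −0.73 and 0.22 over 8, 5 and 7 genes tested. With 1 library left out these ranged from −0.77 to −0.29 (without library 16 and without library 17), from −1.21 to −0.21 (without 14 and without 16) and from 0.06 to 0.35 (without 16 and without 13). Those with no overlap were Cd3g, Gzmb, Nkg7 and Igkc (lower, 8.43% of all genes) and Gzma (higher, 8.03% of all genes). Cd74, the invariant chain of MHC class II, had 1541, 1177 and 1174 against 1856, 1275 and 1431.

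Skeletal muscle genes were mostly low, and their mean log2 level was 5.08, 3.32 and 3.83 in A537T-TRAMP and 5.09, 6.27 and 6.01 in KO-TRAMP. Of 11 listed, 9 passed the filter on low values, some of them only through their level in KO-TRAMP. Those with no overlap were Myh4, Tnnt3, Tnni2, Mylpf and Actn3, all higher, beside 8.03% of all genes. Myh4, a fast myosin heavy chain, had 16.8, 0 and 2.15 normalized counts against 58.0, 205 and 144, and Tnnt3, fast troponin T, had 4.43, 1.3 and 0 against 22.8, 66.8 and 77.7. Acta1, skeletal actin, went the other way, at 986, 389 and 782 against 235, 415 and 361. Smooth muscle markers overlapped, with a median of −0.08 that ranged from −0.55 without library 17 to 0.67 without library 16, and Myh11 ranged from 4945 to 16119 in A537T-TRAMP and from 2777 to 15023 in KO-TRAMP.

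KO-TRAMP libraries 17 and 18 held far more of several neuroendocrine transcripts than the other 4 libraries of this comparison. Chga, chromogranin A of secretory granules, had 5.31, 10.4 and 3.22 normalized counts in A537T-TRAMP and 1.04, 6469 and 4024 in KO-TRAMP, and Pcsk1, the prohormone convertase of the same granules, had 20.4, 15.6 and 3.22 against 15.5, 6221 and 3596. Libraries 17 and 18 were high. Library 16 lay within the A537T-TRAMP range for Pcsk1 and below it for Chga, where all of these counts were low. Sox1, a neural progenitor factor, had 0 in each A537T-TRAMP library and 2.07, 1568 and 985 in KO-TRAMP. Hes6, a target of neurogenic factors, had 170, 145 and 195 against 164, 2860 and 1742. The neuronal RNA-binding protein gene Elavl3 was at 3.54, 0 and 0 against 0, 754 and 531.

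Of the 22 neuroendocrine transcription factors listed, 13 passed the filter on low values, which a gene high in only 2 libraries passes through those libraries. Of the 28 granule and neuronal genes listed, 24 passed. The mean log2 level of these 24 was 5.04, 4.69 and 3.16 in A537T-TRAMP and 2.55, 9.31 and 8.66 in KO-TRAMP. Library 16 was below every A537T-TRAMP library in 13 of the 24, beside 25.5% of all genes. The granule list median was 2.39, and −1.09 with library 16 as the only KO-TRAMP library. The groups did not overlap in 4 of the transcription factors, Sox1 and Myt1 (higher) and Rfx6 and Isl1 (lower), and in 0 of the granule genes. Over all genes the shares were 8.03% (higher) and 8.43% (lower). The factors were 0.00260%, 0.00299% and 0.00276% of all normalized counts in A537T-TRAMP and 0.00268%, 0.143% and 0.0869% in KO-TRAMP. WT-TRAMP also held the programme unevenly. Sox1 was at 519, 0 and 233 in WT-TRAMP libraries 10, 11 and 12. The factors were not the same ones throughout. Foxa2, a forkhead factor of endodermal and neuroendocrine cells, had 0, 1137 and 688 normalized counts in KO-TRAMP and 6.71, 0.964 and 3.41 in WT-TRAMP, whereas Pou3f2 (BRN2, a neural POU factor) had 0, 0 and 1.05 in KO-TRAMP and 419, 0 and 140 in WT-TRAMP. Foxa2 and Pou3f2 were picked after their values were seen.

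Some other genes followed the same 2 libraries. Upk3a and Upk3b, plaque proteins of the urothelium that lines the bladder and urethra, had 0, 947 and 496 and 0, 288 and 176 normalized counts in KO-TRAMP, with at most 1.77 in any A537T-TRAMP library and 0 in every WT-TRAMP library. The other uroplakins of the list did not all follow, since Upk1b had 1265, 2152 and 1499 in A537T-TRAMP and 1399, 1735 and 1390 in KO-TRAMP and Upk1a had 539, 561 and 696 against 354, 1186 and 832, both overlapping. Krt15, a basal keratin, had 160, 227 and 115 in A537T-TRAMP and 179, 1148 and 820 in KO-TRAMP, while Krt14, another basal keratin, had 58.4, 35.0 and 39.8 against 26.9, 8.07 and 17.8. Of 9 basal markers tested 7 were above 0 (median 0.84, and 1.38 without library 16). Krt14 was the one with no overlap, lower, beside 8.43% of all genes. Vwf, the endothelial von Willebrand factor, had 276, 89.6 and 214 against 141, 2441 and 1527, unlike Cdh5. Gzma, a granzyme, had 7.08, 2.60 and 0 against 9.32, 128 and 82.9, and Hoxd10, a posterior homeobox gene, had 11.5, 27.3 and 16.1 against 15.5, 345 and 213.

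Proliferation genes followed libraries 17 and 18 too. Their mean log2 level was 8.32, 9.02 and 8.83 in A537T-TRAMP and 8.33, 10.02 and 9.59 in KO-TRAMP. The median log2 fold change was 0.60, lay between 0.22 and 0.37 when library 13, 17 or 18 was left out and stood at 1.15 when library 16 was, and was −0.44 with library 16 as the only KO-TRAMP library. Of 45 tested, 41 had a log2 fold change above 0. The groups did not overlap in 1 of them, Mcm7, higher, beside 8.03% of all genes. Mcm7, a subunit of the replicative helicase, had 1230, 1338 and 1263 against 1439, 1526 and 1406. Mki67, the Ki-67 antigen, had 3326, 6948 and 5657 against 2730, 12116 and 8515, and Top2a, topoisomerase II alpha, had 1600, 2758 and 2310 against 1617, 7754 and 5134. Library 16 was below the lowest A537T-TRAMP level for Mki67 and near it for Top2a.

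Glycolysis and hypoxia genes were higher in KO-TRAMP libraries 17 and 18, while library 16 lay within the A537T-TRAMP range. Their mean log2 level was 8.78, 8.46 and 8.62 in A537T-TRAMP and 8.56, 9.61 and 9.26 in KO-TRAMP. Of 32 tested, 24 were above 0 (median 0.52), and in 11 the groups did not overlap, 10 of them higher, beside 8.03% of all genes. Gapdh had 2726, 2778 and 3079 normalized counts against 3495, 6310 and 5020 (log2 fold change 0.75, SE 0.22), Ldha (lactate dehydrogenase A) had 2656, 2462 and 2816 against 3318, 5049 and 4387 (0.67, SE 0.17), and Pkm (pyruvate kinase) had 5112, 4428 and 5086 against 5370, 10257 and 8462 (0.67, SE 0.24). In these 3 genes the excess over A537T-TRAMP was smaller in library 16 than in 17 and 18. They share 19.6% to 34.7% of their 31-base words with pseudogenes. The list median was 0.83 without library 16 and 0.04 with library 16 as the only KO-TRAMP library.

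Interferon-stimulated and MHC class I genes showed the reverse pattern. Of 36 interferon-stimulated genes 35 were below 0 (median −0.59), but library 16 lay at the A537T-TRAMP level, with a mean log2 level of 9.41 beside 9.09, 9.67 and 9.50, while libraries 17 and 18 were at 8.35 and 8.83. Leaving out library 16 gave a median of −0.94 and library 17 one of −0.30, and it was 0.00 with library 16 as the only KO-TRAMP library. Groups did not overlap for 2, Ifi27 and Bst2, both lower, beside 8.43% of all genes. Bst2 (tetherin, which holds budding virions at the cell surface) had 345, 539 and 331 against 287, 158 and 198, and Rnf213, a large ubiquitin ligase, had 13107, 21844 and 17325 against 15932, 6326 and 9606. MHC class I genes had 18 of 19 below 0 (median −0.53), with no overlap for B2m and H2-T22, both lower, beside 8.43% of all genes. Leaving out library 16 gave a median of −0.79, library 17 one of −0.26. B2m, the invariant light chain of MHC class I, had 24764, 19376 and 21830 against 18363, 7826 and 11523, and H2-K1 had 20048, 17179 and 17656 against 18766, 7723 and 11628. H2-T22 shares 51.0% and H2-K1 22.8% of its 31-base words with other genes.

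Luminal markers were lower in libraries 17 and 18 and closer to A537T-TRAMP in library 16. Prostate secretory markers had a mean log2 level of 11.66, 11.80 and 11.76 in A537T-TRAMP and 11.37, 10.45 and 10.89 in KO-TRAMP, so prostate secretory transcripts were abundant in all 6 libraries. Of 18 tested 14 were below 0, with a median of −0.75 that was −1.14 without library 16 and −0.38 without library 17. In 5 the groups did not overlap and KO-TRAMP was lower (8.43% of all genes), among them Pbsn, Msmb, Apof and Defb50. Epcam did not overlap and was higher (8.03% of all genes). Pbsn is probasin, whose promoter drives both TRAMP and Pb-Cre. Among androgen receptor targets, 4 of 21 did not overlap and were lower (8.43% of all genes), among them Fkbp5, Klk1b24 and Msmb. Tmprss2 did not overlap and was higher (8.03% of all genes). Klk1b24 belongs to a family of close copies and is uncertain. The list median of −0.31 became 0.02 without library 17 and −0.63 without library 16. Hoxb13, a posterior homeobox factor of the prostate, had 3252, 2234 and 3216 against 3216, 948 and 1712.

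Seminal vesicle secretory genes differed between libraries within each line. The list took 5.45%, 0.000313% and 2.65% of all normalized counts in the 3 A537T-TRAMP libraries, and its share in the KO-TRAMP libraries was 0.266%, 0.000695% and 0.106%. Svs2, a main protein of the copulatory plug, had 407423, 6.49 and 201262 normalized counts against 5701, 20.5 and 2076. Library 14 and library 17 were nearly free of these transcripts, so the lines overlap and nothing in this list separates them. The size factors are medians of ratios and do not sum these counts.

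**Figure D4:**
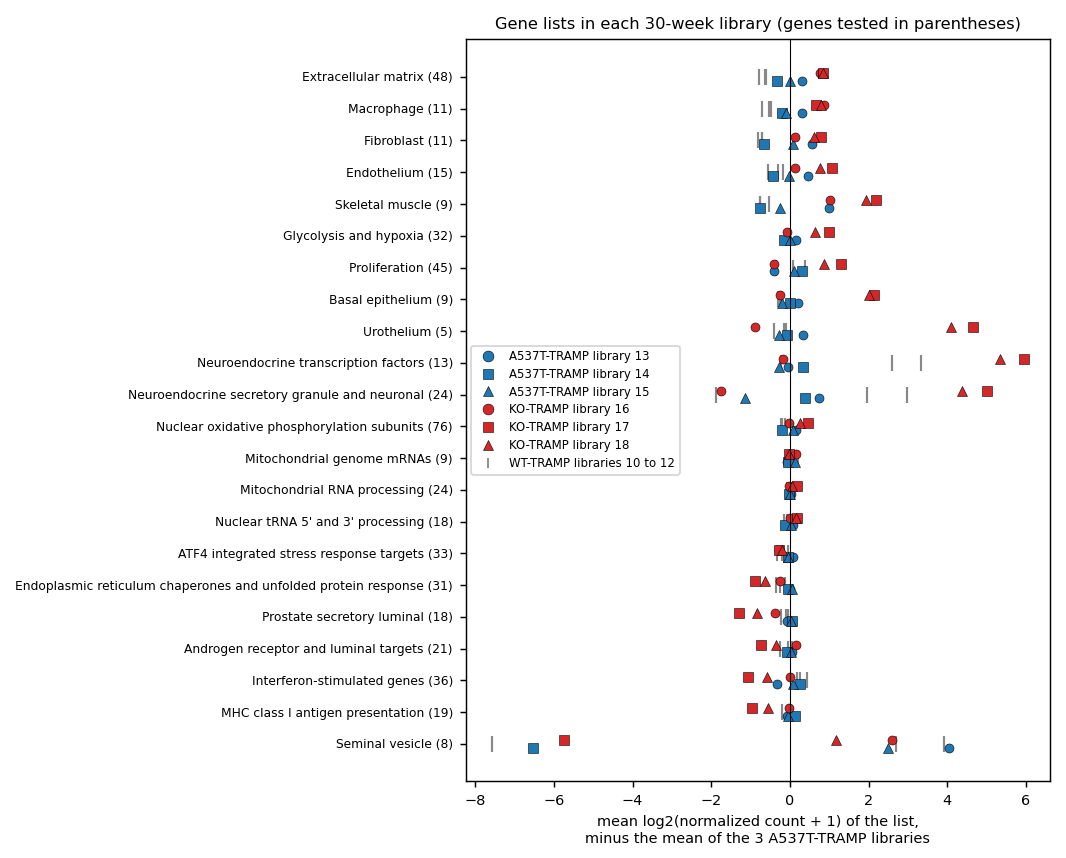
Mean log2(normalized count + 1) of each gene list in each 30-week library, minus the mean of the 3 A537T-TRAMP libraries, with the number of genes tested in parentheses. Blue symbols are A537T-TRAMP, red symbols KO-TRAMP and grey ticks WT-TRAMP libraries. The 3 red symbols lie together and to the right for extracellular matrix and macrophage markers. They lie spread to the left for the endoplasmic reticulum list, with library 16 nearest to A537T-TRAMP, and apart (library 16 away from 17 and 18) for neuroendocrine, urothelium and proliferation lists.

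Transcript levels of genes of the pathways in which ELAC2 works differed little between the lines. Counts per gene do not separate cleaved from uncleaved precursor transcripts, so they do not measure tRNA processing itself. From read coverage, the paper reports more tRNA precursors with ELAC2 loss than with A537T on the TRAMP background. Of 24 mitochondrial RNA processing genes 13 were above 0 and 11 below (median 0.03, from 0.00 to 0.09 with 1 library left out). Groups did not overlap for 5, beside 16.5% of all genes, namely Grsf1, Nono and Sfpq (higher) and Elac2 and Fastk (lower). Grsf1, a protein of mitochondrial RNA granules, had 787, 739 and 744 normalized counts against 841, 1006 and 940, and Fastk, a regulator of a mitochondrial mRNA, had 522, 517 and 507 against 393, 418 and 448. Both differences were small beside those above. Nuclear tRNA processing genes had 12 of 18 above 0 (median 0.13, from 0.06 without library 14 to 0.20 without library 13). Pop5, an RNase P subunit, was the 1 gene with no overlap, lower, beside 8.43% of all genes. It had 279, 322 and 325 against 272, 233 and 233. Ssb (La, which binds the 3′ ends of precursor tRNAs) had 1175, 1003 and 1105 against 1098, 1706 and 1401.

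Of the 9 mitochondrially encoded mRNA features tested, 5 were above 0 (median 0.08). The groups did not overlap in 0 of them, beside 16.5% of all genes, and 0 had an unadjusted p under 0.05, beside 11.1% of all genes. The transcript mt-Co1 (cytochrome oxidase subunit 1) had 72811, 56412 and 66124 normalized counts against 68268, 80650 and 73240, and mt-Nd3 (a complex I subunit) had 2323, 1533 and 2402 against 2035, 3825 and 3062. Nuclear genes of oxidative phosphorylation had 67 of 76 above 0, but with a small median of 0.24, and 7 did not overlap, beside 16.5% of all genes. Atp5b, a subunit of ATP synthase, had 6896, 6207 and 6881 against 6808, 9385 and 8227, while Ndufs7, of complex I, had 246, 223 and 207 against 169, 175 and 172. The list's level in library 16 was within the A537T-TRAMP range, and its median was 0.13 without library 14, 0.14 without library 17 and 0.03 with library 16 as the only KO-TRAMP library.

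Targets of ATF4, the factor of the integrated stress response to amino acid shortage and mitochondrial dysfunction, were lower in KO-TRAMP by a small amount. Of 33 tested 24 were below 0 (median −0.21), and 10 did not overlap, all lower, beside 8.43% of all genes. They include the amino acid transporters Slc7a5, Slc3a2 and Slc7a1, the biosynthetic enzymes Psat1, Shmt2 and Pycr1 and the tRNA synthetases Cars, Aars and Nars. Psat1, of serine synthesis, had 536, 445 and 450 normalized counts against 275, 324 and 284 (log2 fold change −0.69, SE 0.15). Wars, a synthetase that interferon also induces, had 2776, 2664 and 2763 against 2780, 946 and 1619. In Psat1 all 3 KO-TRAMP libraries were low, and in Wars library 16 was not.

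Of 20 Wnt pathway genes tested, 11 were above 0 and 9 below. Their median was 0.10, and ranged from 0.11 without library 13 to −0.21 without library 17, so the list as a whole had no stable direction. In 8 the groups did not overlap. Lower were 7, Wnt4, Wnt7b, Wif1, Axin2, Lgr5, Rspo2 and Rspo3 (8.43% of all genes), and Sfrp4 was higher (8.03% of all genes). Axin2, a feedback target of Wnt signalling, had 570, 530 and 457 normalized counts against 259, 147 and 249 (log2 fold change −1.28, SE 0.25, adjusted p = 0.413). Rspo2, a secreted amplifier of Wnt signalling, had 30.1, 24.7 and 20.4 against 1.04, 1.47 and 1.05, where 1 or 2 reads were counted in each KO-TRAMP library. WT-TRAMP had 32.4, 27.0 and 42.1, so that KO-TRAMP is the line that stands apart. Lgr4, an R-spondin receptor, had 1708, 1761 and 1713 against 2129, 1717 and 1820, and Sfrp1, a secreted Wnt inhibitor, had 447, 402 and 486 against 1542, 402 and 786. Neither separated the lines.

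Several further genes chosen by the same rule had groups that did not overlap. Igfbp5 and Pappa2, a binding protein of insulin-like growth factors and a protease that cleaves it, had 1892, 2369 and 1902 against 2883, 2685 and 2827 and 256, 108 and 278 against 72.5, 39.6 and 61.9. Skil, an inhibitor of SMAD signalling that TGF-beta induces, had 818, 776 and 701 against 989, 1183 and 1161. Socs3, a feedback inhibitor of cytokine signalling, had 51.3, 144 and 104 against 207, 285 and 262. These 4 had unadjusted p between 0.0047 and 0.011. Lss and Insig1, of sterol synthesis and its control, had 656, 614 and 804 against 510, 410 and 456 and 645, 698 and 1225 against 482, 461 and 529. The other lists named here had medians that moved to differing degrees when 1 library was left out. The median turned sign for 26 genes of the TGF-beta pathway (−0.03, and 0.02 without library 13 or 0.19 without library 17). It also did so for 18 of the insulin-like growth factor axis (0.11, and −0.16 when library 14 was left out, −0.02 when library 15 or 17 was). The median kept its sign for 20 targets of p53 (−0.17, from −0.26 without library 15 to −0.12 without library 17). It also did for 29 genes of sterol and fatty acid synthesis (−0.24, from −0.36 without library 13 to −0.16 without library 16). With library 16 as the only KO-TRAMP library the sterol median was −0.38. The median was −0.22 for 22 immediate early genes (−0.05 without library 14 and −0.09 without library 17). For 16 posterior Hox genes it was −0.31 (−0.11 without library 13 and −0.17 without library 14). For 10 genes of the Tcaf family and prostate ion channels it was −0.56, and leaving out library 14, 17 or 16 gave −0.19, −0.25 or −0.93. The calcium channel gene Trpv6 overlapped, at 664, 105 and 371 against 125, 43.3 and 57.7.

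The same comparison at 10 weeks rests on libraries 4 to 6 (A537T-TRAMP) and 7 to 9 (KO-TRAMP), which share no library with the 30-week one. There, 0 of 15720 genes (0%) passed in limma, with 346 (2.20%) at an unadjusted p under 0.05. How far the 30-week effect departed from the 10-week effect was tested over 12 libraries, and 0 of 16391 genes (0%) passed, with 1116 (6.81%) at an unadjusted p under 0.05 and a smallest adjusted p of 0.197. The edgeR test of this difference also called 0, with 1468 at an unadjusted p under 0.05. Without library 16 it called 1257 in limma.

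List medians lay on opposite sides of 0 at the ages in several cases. The extracellular matrix median was 0.72 at 30 weeks and −0.39 at 10 weeks, where 9 of 47 genes were above 0 and 7 did not overlap and were lower, beside 3.36% of all genes at that age. The endoplasmic reticulum median was −0.60 and then 0.09, with 0 of 31 genes above 0 at 30 weeks and 19 of 31 at 10 weeks (49% of all genes at that age), of which 5 did not overlap and were higher, beside 3.96% of all genes. For interferon-stimulated genes the medians were −0.59 and 0.62, with 36 of 36 above 0 at 10 weeks, and for MHC class I genes −0.53 and 0.37. At 10 weeks, however, 0 genes of either list had groups that did not overlap. The interferon level was then 9.30, 7.315 and 8.62 in A537T-TRAMP (mean log2) and 9.34, 8.74 and 9.11 in KO-TRAMP. The MHC class I level was 10.32, 8.98 and 9.69 against 10.27, 9.79 and 10.25. Library 5 of A537T-TRAMP was thus the lowest in both lists. Macrophage markers kept the same sign, with medians of 0.85 and 0.26 and 9 of 11 above 0 at 10 weeks. Of the 14 higher genes named first, 6 were above 0 at 10 weeks too, and of the 14 lower genes 12 were below 0. For Fbn1 the log2 fold change was 1.23 (SE 0.18) at 30 weeks and −0.68 (SE 0.18) at 10 weeks, and the difference of 1.92 (SE 0.26) had the smallest adjusted p of the test, 0.197. For Creld2 the pair was −1.03 and 0.47, and for Chl1 1.80 and 1.10.

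**Figure D5:**
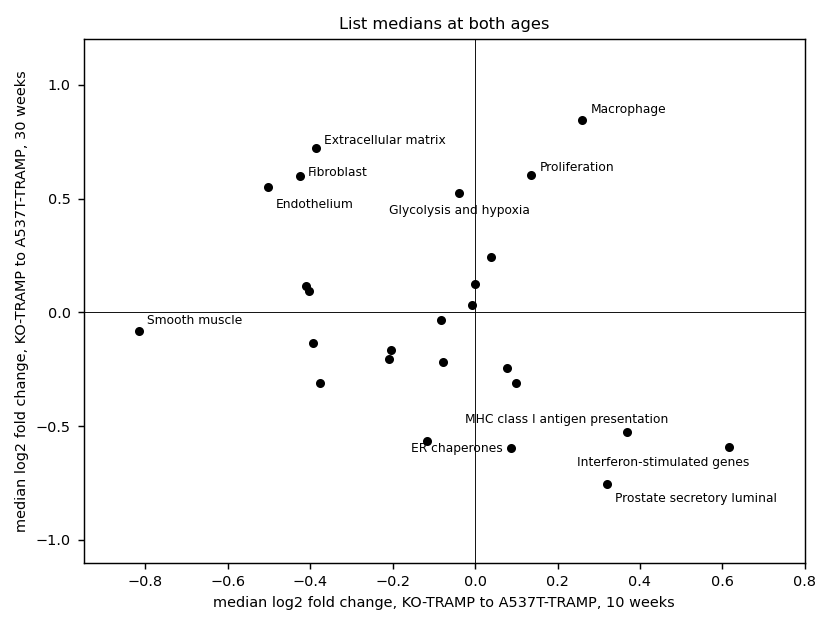
Median log2 fold change of KO-TRAMP against A537T-TRAMP for 25 gene lists with at least 10 genes tested at both ages, at 10 weeks (horizontal) and at 30 weeks (vertical). The extracellular matrix, fibroblast and endothelium medians are below 0 at 10 weeks and above 0 at 30 weeks, and the interferon, MHC class I and secretory luminal medians are the reverse. In the interferon, MHC class I and secretory luminal lists, 0 genes had groups that did not overlap at 10 weeks, and library 5 of A537T-TRAMP was the lowest library. The secretory luminal level (mean log2) was then 12.23, 10.68 and 12.07 in A537T-TRAMP and 11.84, 12.08 and 11.94 in KO-TRAMP. The list of neuroendocrine granule genes, at 2.39 at 30 weeks, lies beyond the axis.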

How the data were processed

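The deposited tables hold normalized counts, which the authors made per gene and age by dividing Salmon read counts by a DESeq2 size factor for each library. The deposited signal, a normalized count per gene as the authors made it, was in every column a whole multiple of its smallest step (100% of values, tolerance 1e-06), and reads were recovered by division. The submitters' processing notes name Trim Galore 0.4.1, cutadapt 1.18, STAR 2.7.3a, Salmon and DESeq2 1.26, and the paper's methods give GRCm38.p6 masked for nuclear copies of mitochondrial DNA with GENCODE annotation. The authors' tables of their own comparisons, which hold shrunken log2 fold changes and s-values, were not used.

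KO-TRAMP and A537T-TRAMP stand in separate tables that share the WT-TRAMP libraries, whose recovered reads were identical between tables in 35.5% to 37.6% of genes at 30 weeks. The median absolute table offset was 0.0303 log2 units, with 23 genes over 0.5. Reads of the 6 libraries (9594237 to 14830104 each) were scaled together by medians of ratios, and genes with a joint mean of at least 10 were tested with limma 3.58.1 (R 4.3.3, trend, Benjamini-Hochberg threshold 0.05) on log2(normalized count + 1), which understates changes of low genes. The count tests edgeR 4.0.16 and DESeq2 1.42.0 were run on the recovered reads. The difference between ages was an interaction over 12 libraries. Of 55469 gene IDs, 55107 were paired with a symbol from the GENCODE annotation of GRCm38. Scripts were tested on simulated data. Named genes were the 14 of smallest p in each direction with no overlap and a mean of at least 100, plus members of each list chosen by p and level, and those said to be picked later (Derl3, Hspa5 and Pdia6 for their promoters, Foxa2, Pou3f2, Mcm7, Col6a3 and genes named for small counts). The members and lists were chosen with earlier results of these data known. Shared 31-base words were counted between annotated transcripts. Some genes of these lists are counted but not reported here by name.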

Additional observations from a re-analysis of the deposited data

Results flagged for a closer look

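For 6 of the genes named above the lines did not overlap at either age, and the sign of the difference was opposite at 30 and 10 weeks. Many of the genes named above were chosen by their 30-week values. Of all genes, 16.5% did not overlap at 30 weeks, and 3.96% (higher) and 3.36% (lower) at 10 weeks. The share of all genes with such a reversal was not counted, so the 6 are a description only. On the log2 scale, the 30-week effect minus the 10-week effect was 1.44 for Col4a2, 1.54 for Col1a1, 2.33 for Col3a1, 1.92 for Fbn1 and 3.30 for Thbs2, all higher in KO-TRAMP at 30 weeks and lower at 10 weeks. For Derl3, lower at 30 weeks and higher at 10 weeks, it was −1.62. None of these 6 differences passed in limma, where the adjusted p for the interaction ranged from 0.197 (Fbn1) to 0.53 (Col1a1). Single outlying values within a group of 3 were not tested for.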

How the results depend on the processing

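The count of 0 genes at 30 weeks stayed at 0 with TMM scaling, pseudocounts of 0.5 and 5, no filter, a joint mean of at least 50, the table offset removed and edgeR, but was 890 with DESeq2. Leaving out each library gave 0 to 3742 genes, with 3742 without library 16 and 1 (Crisp1) without library 14. The difference between ages ranged from 0 to 1257 genes, with 1257 without library 16, and was 0 under every other alternative run. Both counts without library 16 rest on libraries 17 and 18 for KO-TRAMP at 30 weeks, whose independence was not tested. Without libraries 15 and 18, or without 17 and 18, which were chosen after seeing the data, the count was 0, with 218 and 889 genes at an unadjusted p under 0.05. In the latter, library 16 stands alone, the spread comes from A537T-TRAMP, and library 16 is assumed to vary like it.
Without libraries 17 and 18, the log2 fold change turned to 0.036 for Wars, 0.31 for P4hb, −0.29 for Vwf, 0.052 for H2-K1, −0.033 for Hes6, 0.18 for Hoxb13, −0.13 for Hoxd10, −0.88 for Mki67 and −0.41 for Top2a. When 1 library was left out, P4hb ranged from −0.47 to 0.036 and Mki67 from −0.069 to 0.99, both changing sign without library 17, and Myh11 from −0.84 to 0.37, changing sign without library 13 (0.023) and without library 16. Beyond what leaving out these libraries itself removes, the cause was not tested. Elac2 stayed between −0.29 and −0.20 when 1 library was left out. List medians moved by more than the spread between libraries in 52 of 638 alternatives. No paired analysis was possible because the column headers carry no replicate number within a group. With 3 libraries a group and 1 that differs from the other KO-TRAMP libraries, small differences were not detectable.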
